A study of Rattus norvegicus with 6 samples.

Results

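A small group of miRNAs is made without the nuclease Drosha, and 4 of them, miR-320, miR-484, miR-877 and miR-1224, were followed in rat sertoli cells exposed to 4-nonylphenol (4-NP). They were taken from the mature miRNA rows of a small RNA count table by name, with a final -3p or -5p ignored, which gave 5 of 734 rows, namely rno-miR-320-3p, rno-miR-320-5p, rno-miR-484, rno-miR-877 and rno-miR-1224 (written below without the rno- that marks the rat). Sertoli cells are the somatic cells of the seminiferous tubule that nourish germ cells. Here they were primary cells from the testes of Sprague-Dawley rats aged 5 to 10 days, grown in medium with fetal bovine serum. There were 3 control samples with 0 mM 4-NP and 3 samples with 0.5 mM 4-NP, an alkylphenol with estrogen-like action, all collected at 24 h. The labels do not say whether samples of a group came from separate cultures or animals, so p-values measure the spread between these samples, which may be technical.

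Most animal miRNAs are cut by Drosha and then by Dicer. Drosha, with its partner DGCR8, frees a hairpin from a long primary transcript in the nucleus, and Dicer then removes the loop in the cytoplasm. miR-320 and miR-484 skip the Drosha step because RNA polymerase II makes their hairpins directly, with a cap on the 5′ end, and the miRNA that is loaded comes from the 3p arm. miR-877 and miR-1224 are mirtrons, short introns that the spliceosome releases and that then fold into a hairpin for Dicer, so the splice sites set the ends of the hairpin.

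Sequences were found for 3 of the 4 miRNAs in the RefSeq table of the GRCr8 assembly. The mature miRNAs are shown with the seed, bases 2 to 8 from the 5′ end, in capitals, because the seed pairs with target mRNAs.
miR-484: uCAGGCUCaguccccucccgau
miR-877: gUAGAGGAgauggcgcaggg
miR-1224: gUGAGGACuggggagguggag
No seed was shared between these 3. The miR-484 seed occurs in 2 other mature names of the RefSeq table, of which 1, miR-344a-5p, was counted and had 1 read in all 6 samples. The seeds of miR-877 and miR-1224 occur in no other of its 693 mature names.

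The hairpins are shown because they carry the marks of the routes. In the mirtron hairpins the capitals mark the first 2 and last 2 bases, where an intron begins with GU and ends with AG, and in the miR-484 hairpin they mark the mature miRNA.
miR-877 hairpin: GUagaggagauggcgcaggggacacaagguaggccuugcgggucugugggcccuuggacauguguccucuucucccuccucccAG
miR-1224 hairpin: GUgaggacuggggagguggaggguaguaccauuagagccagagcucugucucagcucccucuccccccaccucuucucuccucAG
miR-484 hairpin: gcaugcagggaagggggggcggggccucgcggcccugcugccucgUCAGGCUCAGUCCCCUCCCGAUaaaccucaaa
Mature miR-877 and miR-1224 both begin at base 1 of the hairpin, on the GU, whereas mature miR-484 runs from base 46 to base 67 of a hairpin of 77 bases, on the 3p side. Of the 419 hairpins in the RefSeq table, 4 begin with GU and end with AG (0.955%), those of miR-877, miR-1224, miR-678 and miR-3595. The mature sequences were rich in G and C, with 63.6% for miR-484, 65.0% for miR-877 and 66.7% for miR-1224, against a median of 47.8% over the 693 mature names. In GRCr8 the miR-484 hairpin lies at chr10:1394905-1394981 on the minus strand, beside the genes Marf1 and Nde1. The miR-877 hairpin lies at chr20:2816284-2816368 on the plus strand, within the span of Abcf1, and the miR-1224 hairpin at chr11:93811291-93811375 on the minus strand, within the span of Vwa5b2. The nearest gene to that of miR-320, on chromosome 15, is Polr3d, which codes for a subunit of RNA polymerase III. These positions are those of the RefSeq table, and the assembly behind the counts is not given in the sources used here.

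The 6 samples had 20023200 to 23426742 reads on mature miRNAs. Levels are given as CPM, reads per 1000000 mature miRNA reads of the sample, and 3 reads, the most that a count of 0 was taken to allow, are 0.128 to 0.150 CPM. As reads were not collapsed to molecules, these limits cover counting error only. The 2 rows of miR-202, a miRNA of gonadal somatic cells, summed to 807 to 1195 CPM in the controls and 698 to 796 CPM after 4-NP, and the rows of miR-143 and miR-145, which mark myoid and smooth muscle cells, were far higher, at 120596 to 136273 and 88389 to 96697 CPM. These are levels of reads and not of molecules, so they do not give the shares of cell types. In bulk samples, fewer cells of a type and less RNA per cell cannot be told apart.

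Together the 5 rows held 0.0137% ± 0.00104 of mature reads in the controls and 0.0366% ± 0.000794 after 4-NP (SD, n = 3 each). The increase was carried by miR-320-3p, which made up 85.3 to 89.1% of these reads in the controls and 95.7 to 96.3% after 4-NP. Among the rows that had enough reads for the test, miR-320-3p rose 2.90-fold, while miR-484 was at 0.667-fold and miR-877 at 1.62-fold without passing an adjusted p of 0.05. The other 2 rows, miR-320-5p and miR-1224, had at most 5 reads in any sample and were not tested. So 1 of 3 tested rows was called, and it was higher, where 20.2% of the 549 tested miRNAs were called in either direction 7.47% higher and 12.8% lower. With 3 rows, this count says nothing about the group as such.

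miR-320-3p, the loaded arm of the capped hairpin, had 2607, 2849 and 2747 reads in control replicates 1 to 3, or 111, 123 and 123 CPM. After 4-NP it had 7813, 7183 and 7476 reads, or 353, 359 and 341 CPM. The treated samples lay close together and far above all controls. This was a log2 fold change of 1.54 ± 0.12 (SE here and below, 95% interval 1.24 to 1.83) with an adjusted p of 0.000419 in the quasi-likelihood test of edgeR, which also passed the study's limits of a fold change over 2 and an unadjusted p under 0.05, as 5.83% of the tested miRNAs did in this direction. Its mean level moved from the 132nd to the 83rd place among the 734 mature miRNAs. By log2 fold change it was the 16th from the top among the 549 tested miRNAs and the 4th among the 139 with a mean of at least 100 CPM.

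**Figure D1:**
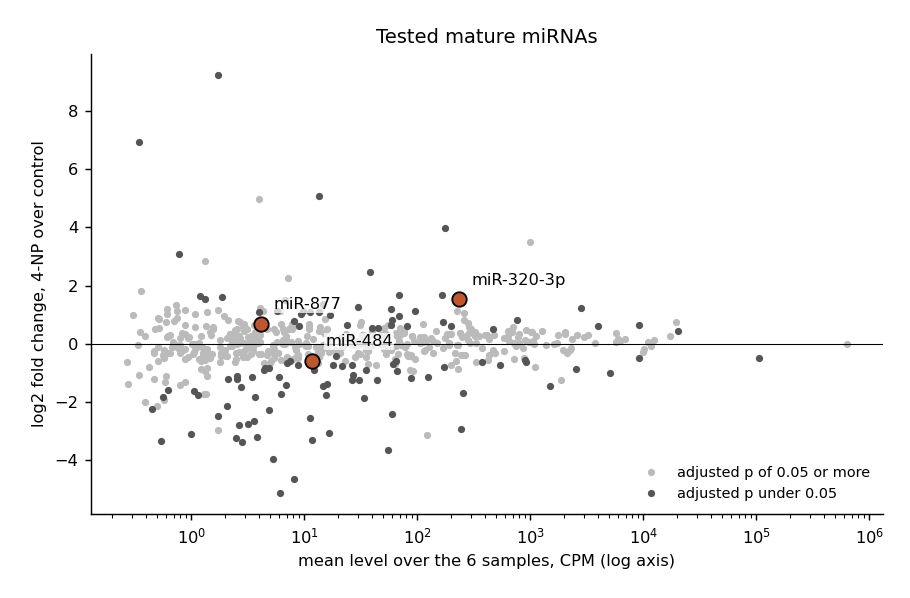
Each point is 1 of the 549 tested mature miRNAs, with its mean level over the 6 samples in CPM on a log axis and its log2 fold change, 4-NP over control, on the vertical axis. miR-320-3p, at a log2 fold change of 1.54, is the 4th highest of the 139 miRNAs with a mean of at least 100 CPM, while miR-877 (0.69) and miR-484 (-0.58) lie among the pale points with an adjusted p of 0.05 or more.

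The opposite arm of the same hairpin was almost absent. Controls gave 0 reads of miR-320-5p and the treated samples 1, 1 and 0, so 2 reads stood against 30675 of miR-320-3p over the 6 samples. The balance of the arms could not be compared between the groups, since no member had at least 10 reads on both arms in every sample.

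miR-484, the other capped hairpin, went the other way in its values. The controls had 261, 426 and 288 reads, or 11.1, 18.4 and 12.9 CPM, and the treated samples 203, 175 and 228 reads, or 9.17, 8.74 and 10.4 CPM. The groups did not overlap, but control replicate 1 lay close to 4-NP replicate 3, and control replicate 2 was well above all others. The log2 fold change was -0.58 ± 0.19 (95% interval -1.03 to -0.14), with an adjusted p of 0.0741 in edgeR. It was above 0.05 under each of the 17 alternatives run, at 0.0603 to 0.248.

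miR-877, the better counted mirtron, was counted 54, 61 and 98 times in the controls, or 2.31, 2.64 and 4.40 CPM, and 122, 97 and 111 times after 4-NP, or 5.51, 4.84 and 5.07 CPM. All treated samples were higher than all controls, and control replicate 3 was nearer to the treated samples than to the other controls. The log2 fold change was 0.69 ± 0.29 (95% interval 0.01 to 1.38), with an adjusted p of 0.136 in edgeR. Without control replicate 3 it was 1.05 ± 0.17 (adjusted p = 0.0144 in edgeR).

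miR-1224, the other mirtron, was at the limit of detection. Control samples gave 5, 3 and 2 reads and treated samples 2, 0 and 0, or 10 reads against 2 in all. It was below the filter of the fit and not tested, so no difference is read from these reads. No overlap between the groups was seen for all 3 tested members, against 42.4% of the 549 tested miRNAs, of which 19.9% were higher and 22.6% lower after 4-NP.

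**Figure D2:**
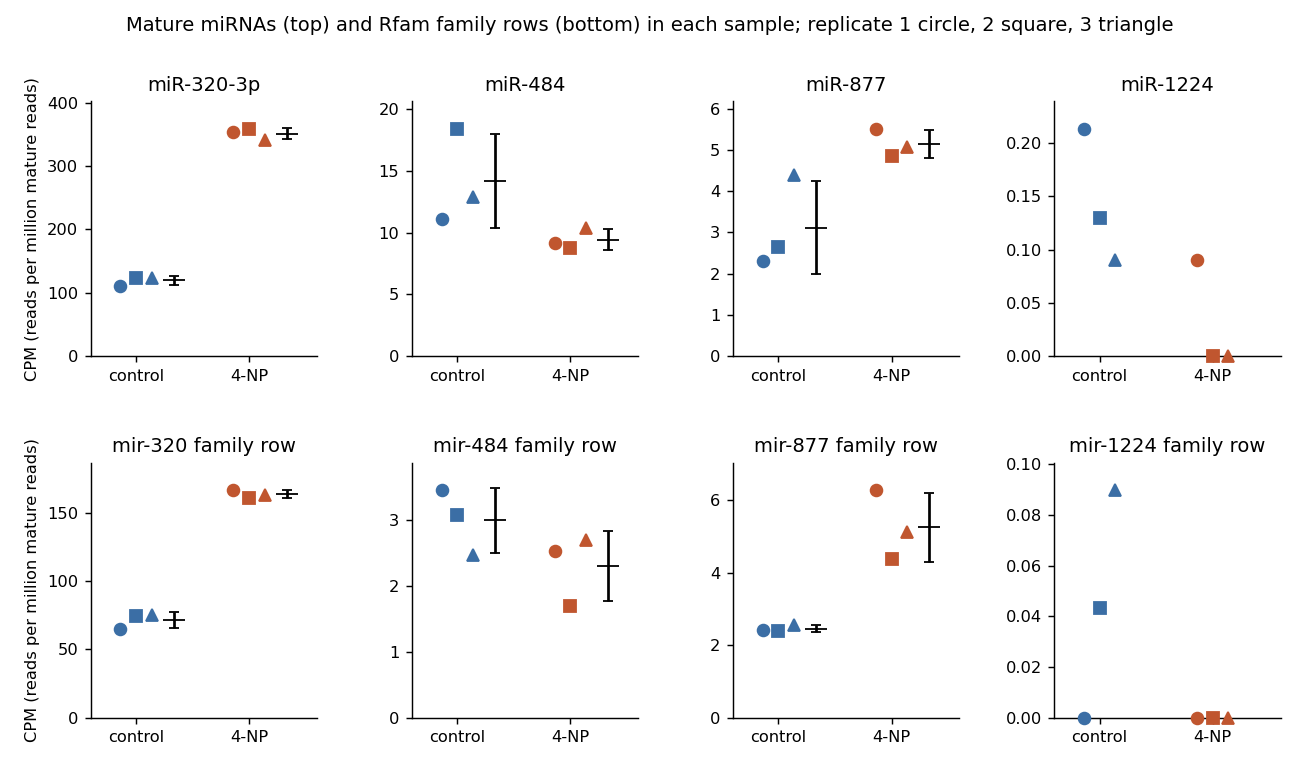
Each panel shows the level in CPM in the 3 control samples (blue) and the 3 4-NP samples (orange), with the mean and SD in black except for miR-1224, where most samples had under 3 reads. miR-320-3p was at 111 to 123 CPM in the controls and 341 to 359 CPM after 4-NP, and its family row rose with it, while miR-484 was lower and miR-877 higher in all treated samples.

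The order of the read counts was the same in all 6 samples. miR-320-3p was the highest, followed by miR-484, miR-877 and then miR-1224 and miR-320-5p, which could not be ordered at this depth. All were counted as RNAs of 18 to 30 nt, so no scaling by length was applied. As reads were not collapsed to molecules, this is an order of reads and not of molecules. In the controls miR-484 (11.1 to 18.4 CPM) was well apart from miR-877 (2.31 to 4.40 CPM), and after 4-NP the values were 8.74 to 10.4 and 4.84 to 5.51 CPM.

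Ratios of reads within a sample do not depend on how libraries are scaled. miR-320-3p had 9.99, 6.69 and 9.54 reads per read of miR-484 in the controls and 38.5, 41.0 and 32.8 after 4-NP. The ratio of these capped-hairpin miRNAs therefore differed 4.33-fold between the groups, with means of 3.11 ± 0.32 and 5.22 ± 0.17 on the log2 scale (SD, n = 3 each). Against miR-877, miR-320-3p had 48.3, 46.7 and 28.0 reads per read in the controls and 64.0, 74.1 and 67.4 after 4-NP, a 1.72-fold difference. The mirtron miR-877 had 0.207, 0.143 and 0.340 reads per read of miR-484 in the controls and 0.601, 0.554 and 0.487 after 4-NP, a 2.52-fold difference. For all 3 ratios the treated samples lay above all controls. The exact two-sided permutation test gave p = 0.1 for each (0.1 after adjustment over the 3 ratios). This is the smallest p that 3 samples against 3 allow, so no ratio could pass 0.05. For both ratios over miR-484 the separation was fixed in advance, as miR-484 was lower and the other members higher without overlap. Each ratio also follows from the others. All were added after the values were seen, so they are not separate evidence.

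**Figure D3:**
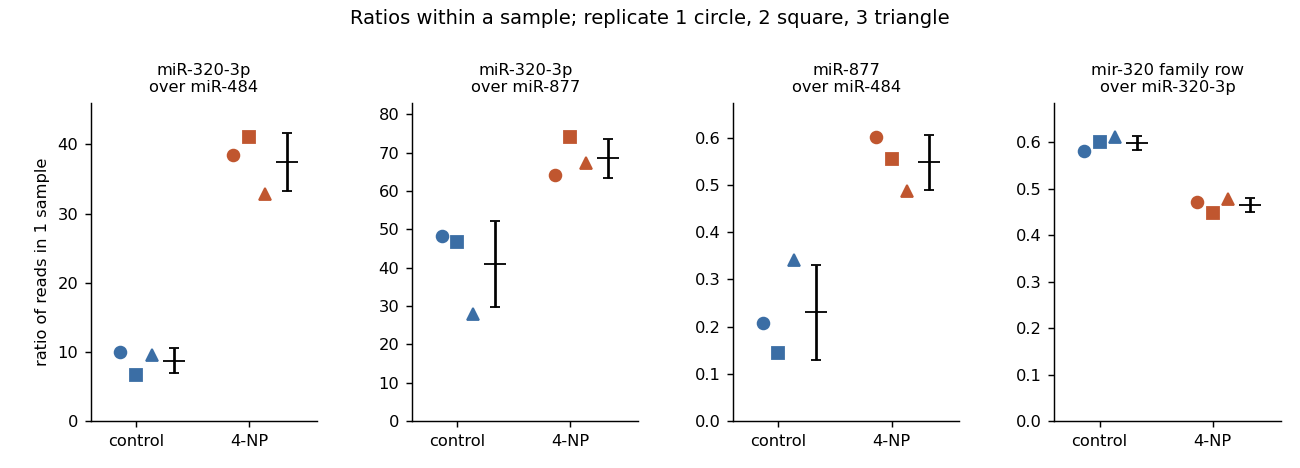
The vertical axes give the number of reads of 1 RNA per read of another in the same sample, with control samples in blue, 4-NP samples in orange and the mean and SD in black. The ratio of miR-320-3p to miR-484 was 6.69 to 9.99 in the controls and 32.8 to 41.0 after 4-NP, and the ratio of the mir-320 family row to miR-320-3p was lower in all treated samples.

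The same table counts reads on Rfam families of miRNA precursors, which gave another readout of these genes. RNA of 18 to 30 nt was cut from the gel, so these rows hold short RNAs and not whole hairpins, and the rule that put a read in a family row or a mature row is not given in the sources used here. On the mir-320 family row, the controls counted 1516, 1711 and 1680 reads and the treated samples 3682, 3215 and 3571. The means were 71.4 ± 5.81 and 163 ± 2.91 CPM (SD, n = 3 each), and the groups were clearly apart. The log2 fold change of 1.17 ± 0.16 had an adjusted p of 0.00422 in edgeR, and with TMM factors of the other small RNAs it was 0.79 ± 0.16 (adjusted p = 0.0186 in edgeR). In this fit of 738 small RNAs other than mature miRNAs, scaled as the mature miRNAs, 22.8% were called in either direction and 14.9% were called higher, and these values are to be read against a median of 0.46 over the 738 (log2 fold change). Among the 93 tested precursor families 22.6% were called and 8.60% were called higher, and their median log2 fold change was -0.02.

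For the mir-877 family row, the reads were 57, 55 and 57 in control and 139, 88 and 112 in treated samples. This is 2.46 ± 0.0903 against 5.26 ± 0.952 CPM (SD, n = 3 each). The log2 fold change of 1.07 ± 0.22 had an adjusted p of 0.0159 in edgeR. All treated samples were higher than all controls, and the 3 controls, which differed for the mature row, were nearly level. The call was lost with TMM factors of the other small RNAs (log2 fold change 0.67, adjusted p = 0.0539 in edgeR) and without control replicate 1 (adjusted p = 0.0573) or control replicate 2 (adjusted p = 0.0709). A block for the replicate number also ended it, at an adjusted p of 0.0603 in edgeR.

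The mir-484 family row was counted 81, 71 and 55 times in control and 56, 34 and 59 times in treated samples. The groups overlapped, with a log2 fold change of -0.39 ± 0.27 (95% interval -1.05 to 0.27, adjusted p = 0.326 in edgeR). It was -0.80 (adjusted p = 0.0768 in edgeR) with TMM factors of the other small RNAs, -0.24 without control replicate 1 and -0.13 without 4-NP replicate 2. The mir-1224 family row had at most 2 reads in any sample. Of the 3 tested family rows, 2 were thus called higher after 4-NP, against 8.60% of the 93 precursor families called higher and 22.6% called in either direction, and 1 of the 2, mir-877, lost its call under the alternatives above. The same 2 did not overlap between the groups, against 47.3% of the 93 precursor families.

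The mir-320 family row changed less than miR-320-3p. There were 0.582, 0.601 and 0.612 family reads per read of miR-320-3p in the controls and 0.471, 0.448 and 0.478 after 4-NP, a 0.778-fold difference, without overlap (exact two-sided permutation test, p = 0.1, the smallest possible, and 0.3 after adjustment over the 3 ratios of this kind). The same ratio overlapped between the groups for mir-484 (exact permutation p = 0.7, 0.7 after adjustment) and mir-877 (exact permutation p = 0.4, 0.6 after adjustment).

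Other miRNAs that skip a step of the usual route were taken from a list of 5 names, of which 4 were counted. The remaining name, miR-1983, from a hairpin of a tRNA, had no row among the mature miRNAs. miR-702 is known as a further mirtron. Its RefSeq hairpin begins with GU and ends with GC, and the arm tested here, miR-702-3p, lies at bases 81 to 103 of it. The last base of this arm and the base after it are AG. Of the others, miR-664 and miR-1839 come from hairpins of H/ACA snoRNAs, and miR-451 is cut by Drosha but not by Dicer. They had 7 rows, of which 5 were tested, and 1, miR-451-5p, was higher at an adjusted p under 0.05, against 7.47% of all tested miRNAs. The median log2 fold change was 0.31 over these 5 rows and -0.02 over all 549. Reads of miR-702-3p numbered 137, 179 and 255 in control and 294, 282 and 290 in treated samples. As for miR-877, all treated samples were higher and control replicate 3 was the highest control. The log2 fold change was 0.67 ± 0.26 (adjusted p = 0.122 in edgeR). The adjusted p in edgeR was 0.0147 without control replicate 3 and 0.158 to 0.293 when any other sample was omitted. The snoRNA-derived rows had log2 fold changes of -0.14 for miR-664-3p, 0.31 for miR-1839-5p and -0.31 for miR-1839-3p, with adjusted p values of 0.256 to 0.705 in edgeR. miR-664-2-5p and miR-702-5p, with at most 14 reads in any sample, were not tested.

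miR-451-5p, an erythroid miRNA, had 10.8, 10.7 and 40.1 CPM in the controls and 58.7, 305 and 628 CPM after 4-NP. The log2 fold change of 3.99 ± 1.03 had an adjusted p of 0.0363 in edgeR, and the call was lost without control replicate 1 or 2 or 4-NP replicate 2 or 3, at adjusted p values of 0.0689 to 0.123. In the same treated samples miR-320-3p was at 341 to 359 CPM, and a link between miR-320-3p and miR-451-5p was not tested.

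**Figure D4:**
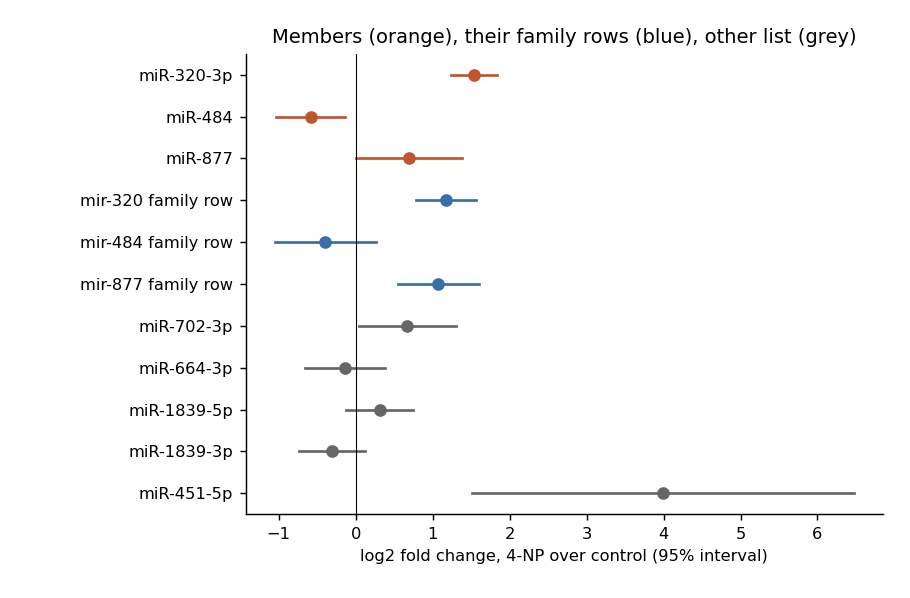
Points are log2 fold changes, 4-NP over control, with 95% intervals from the edgeR fits, for the tested members (orange), their Rfam family rows (blue) and the other miRNAs that skip a step (grey). The intervals are not adjusted for the number of tests. Those of miR-320-3p (1.24 to 1.83), miR-877 (0.01 to 1.38) and both the mir-320 and mir-877 family rows lie above 0. So do those of miR-702-3p (0.04 to 1.30) and miR-451-5p, which is the widest. That of miR-484 (-1.03 to -0.14) lies below 0.

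Some rows in lists of markers of other cell types were called too. Over all 549 tested miRNAs, 7.47% were called higher and 12.8% lower, and the lists are too short to set against these shares. The 4 erythroid rows, of miR-451, miR-144 and miR-486, summed to 11.0 to 40.7 CPM in the controls and 59.3 to 631 CPM after 4-NP, with 1 of 2 tested rows higher. The 6 germ cell rows, of miR-34b, miR-34c and miR-449a, summed to 150 to 167 and 162 to 197 CPM, which overlap. Of their 5 tested rows 4 were higher, while miR-449a-5p, the row with the most reads, was not called (log2 fold change -0.25, adjusted p = 0.247 in edgeR). These names do not stand for all miRNAs of the testis, since others outside the list were lower, such as miR-871-5p (log2 fold change -3.66) and miR-741-3p (-2.94, adjusted p of 2.19e-05 and 0.000343 in edgeR), both picked after their values were seen. No direction for germ cells is read from the list. Fewer reads after 4-NP were seen on the endothelial miR-126a rows (6325 to 7615 against 3234 to 3805 CPM, 2 of 2 tested rows lower), the epithelial rows of the miR-200 family (10.7 to 13.0 against 6.34 to 7.05 CPM, 2 of 5 lower) and the myoid rows (2 of 4 lower). No marker row of these lists was at 0 in all samples. The myeloid rows summed to 8.05 to 10.6 and 8.36 to 14.1 CPM, the striated muscle rows to 14.1 to 19.5 and 13.2 to 14.8 CPM, and the liver miRNA miR-122 was at 0.0427 to 0.538 and 0.271 to 21.7 CPM, with no tested row called. Their part in the values of miR-320-3p, miR-484 and miR-877 was not tested.

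The miRNAs most like each member over the 6 samples were found by Pearson's r of log2(CPM + 1), as a description without a p, since 6 samples in 2 groups give many high values. For miR-320-3p they were the authors' predicted novel_mir48, miR-34c-3p and miR-182 (r of 0.997, 0.995 and 0.994), and 24 of the 548 other tested miRNAs had an r over 0.95. For miR-484 they were miR-433-5p, miR-92b-3p and miR-139-5p (r of 0.967, 0.949 and 0.935). For miR-877 they were miR-3560, miR-702-3p and miR-340-5p (r of 0.977, 0.976 and 0.967).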

How the data were processed

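Small RNA was sequenced from 3 control and 3 4-NP samples. The labels gave the group and the replicate number of each sample. The authors ligated adapters with molecular identifiers, amplified, sequenced and deposited raw read counts per small RNA in 1 table of 2363 rows, without normalization. HISAT2 and DESeq2 are named in the submitters' processing notes without role or version, and the miRNA database and the rules of assignment are not given in the sources used here. The deposited identifier columns, whose values are not molecules (1 for each known mature miRNA with reads), were not used. The 4 total rows (exons, introns, intergenic sequence, repeats), with 0.431 to 2.46% of reads each, entered no library size or test.

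Mature counts were fitted in edgeR 4.0.16 (R 4.3.3) with TMM factors of 0.947 to 1.09 and filterByExpr, which left 549 of 734 rows, and tested with the quasi-likelihood F test, with Benjamini-Hochberg adjustment over all tested rows and no block. The other 1625 small RNAs were fitted in the same way, with the effective library sizes of the mature miRNAs. Printed CPM are scaled to the sum of mature reads, and fold changes are those of the fits. Intervals are 95% intervals from the standard error. Replicates of a group differed beyond counting error (chi-square per degree of freedom 169 to 1046). All members, family rows and listed miRNAs are accounted for, and for each tested member the 3 miRNAs with the highest r are named. Members, lists and tests were chosen with earlier results of these data known, and the ratios within a sample were added after the values were seen. Alternatives were RLE factors, total-count scaling, a library size without miR-21-5p (62.0 to 63.9% of mature reads), DESeq2 1.42.0, edgeR's exact test, limma 3.58.1, other filters, known miRNAs only, a replicate block and the omission of each sample. The procedure was tested on simulated counts.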

Additional observations from a re-analysis of the deposited data

How the results depend on the processing

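Under all 17 alternatives, miR-320-3p kept a log2 fold change of 1.50 to 1.61 and an adjusted p of at most 0.00756, and miR-484 stayed at -0.70 to -0.43 above 0.05. miR-877 was at 0.53 to 1.05 over the omissions of 1 sample, and passed 0.05 only without control replicate 3, where 2 members were called in place of 1 (1 to 2 over these omissions). The mir-320 family row kept its call under all 8 alternatives (0.79 to 1.28). The mir-877 family row (1.07) lost its call with TMM factors of the other small RNAs (0.67) and with the replicate block (1.06), and it ran from 0.98 to 1.27 when samples were omitted, with the call kept in 4 of these 6 fits. The mir-484 family row passed 0.05 in none of its 8 alternatives (-0.80 to -0.13). Of the other miRNAs that skip a step, 0 were called with limma on log2(CPM + 0.1) (adjusted p = 0.0541 for miR-451-5p) and 0 to 2 when samples were omitted. miR-664-3p ran from -0.24 to 0.082 over the omissions and changed sign without 4-NP replicate 3. The rise of the summed share was 0.0229 percentage points of mature reads and 0.0190 of all counted reads. The cause of these changes was not tested. With the replicate block, 26 miRNAs were higher and 56 lower in all, against 41 and 70 without it. Same-numbered samples gave no sign of pairing, as their deviations from the group means correlated at -0.30, -0.27 and -0.02. The labels do not give the origin of the samples, so pairing by number is not excluded. The block changed no other call of a member. Depth limits miR-1224 and miR-320-5p, which had under 6 reads per sample. The alternative for the balance of the arms was not run, as no member had enough reads on both arms, and miR-344a-5p, which shares the miR-484 seed, was under the filter. Seeds were compared for miR-484, miR-877 and miR-1224.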

Other observations

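The mirtron miR-877 and miR-702-3p, whose RefSeq hairpin begins with GU and runs on past an AG to end with GC, kept a nearly fixed ratio. There were 0.394, 0.341 and 0.384 reads of miR-877 per read of miR-702-3p in the controls and 0.415, 0.344 and 0.383 after 4-NP, although each of the 2 varied with an SD of 0.53 and 0.52 on the log2 scale over the 6 samples. The SD of the log2 ratio was 0.112, where counting error alone gives about 0.184 in a single sample. These reads therefore cannot resolve a spread this small. The SD was the smallest among the 548 tested miRNAs that were set against miR-877, a rank that is not read as a link between the 2. Control replicate 3 was high for both. This pair was picked after the values were seen, so the ratio is given as a description without a test.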
